A study of Mus musculus with 10 samples.

Results

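The 10 immediate-early genes described here were followed in inguinal white adipose tissue, the fat pad under the skin of the groin. The mice were obese and, by the genotype label, wild type or adipose Tcf7l2 knockout. The members, Fos, Fosb, Jun, Junb, Egr1, Atf3, Ier2, Nr4a1, Dusp1 and Zfp36, were taken by symbol from a table of 52636 genes, and all 10 were found and passed the filter on low counts, which left 15927 genes. The 5 control mice carried floxed Tcf7l2 alleles (TCF7L2F/F, genotype label wild type), and the 5 knockout mice carried the same floxed alleles and a Cre transgene written Adp-Cre. All were C57BL/6 mice of 6 months fed a diet with 65% fat, for 16 weeks by the diet label, 12 weeks by the sample descriptions and 4 months by the treatment protocol. The promoter behind Adp-Cre is not spelled out in the labels, and the floxed controls carried no Cre. Which cell types lost or kept the gene was not measured. Libraries are called control 1 to 5 and knockout 1 to 5 in the order of the records, and equal numbers pair nothing.

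Immediate-early genes are switched on within minutes of a stimulus without the need for newly made protein. Growth factors, calcium, cAMP, heat, mechanical strain and tissue damage reach them through the ERK, JNK and p38 kinases and the factors SRF, ELK and CREB, which already sit in the cell. Their transcripts are short-lived, and dissection, warm delay and enzymatic dispersal of tissue are known to raise many of them, so their levels serve as a check on how tissue was handled. The labels state that tissue was flash frozen and give no time from dissection to freezing.

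In this comparison of knockout with control, 0 of the 10 immediate-early genes passed in either direction by edgeR's quasi-likelihood test (adjusted p below 0.05), where 12.9% of all tested genes did, 5.84% higher and 7.05% lower. None had an unadjusted p below 0.05, which 31% of all tested genes had. Junb, at 1.36 times the control level, and Fos, at 1.22 times, had the highest fold values, and Dusp1, at 0.738 times, the lowest. No library had the whole set high or low together: the mean log2 CPM of the 10 genes lay between 3.63 and 3.83 in all 10 libraries (CPM is the count scaled to library size with TMM factors). The libraries that departed most did so gene by gene, with knockout 1 highest in Junb and Ier2 and lowest in Dusp1 and Atf3.

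The stretches before the transcription start are shown for the 3 members with the smallest p-values, Junb, Dusp1 and Fos, because a short cAMP response element (CRE) lies in each. Sequences are from RefSeq on GRCm38.p6, 250 bases up to the base before the annotated start, 5′ to 3′ on the strand of the gene, and capitals mark the CRE half-site TGACG on either strand.
Fos, chr12:85473640-85473889, plus strand: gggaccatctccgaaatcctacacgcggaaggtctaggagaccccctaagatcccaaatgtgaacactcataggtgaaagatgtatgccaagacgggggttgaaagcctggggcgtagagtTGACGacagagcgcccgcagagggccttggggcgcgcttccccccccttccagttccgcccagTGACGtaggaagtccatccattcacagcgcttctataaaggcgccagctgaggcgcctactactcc
Junb, chr8:84978749-84978998, minus strand: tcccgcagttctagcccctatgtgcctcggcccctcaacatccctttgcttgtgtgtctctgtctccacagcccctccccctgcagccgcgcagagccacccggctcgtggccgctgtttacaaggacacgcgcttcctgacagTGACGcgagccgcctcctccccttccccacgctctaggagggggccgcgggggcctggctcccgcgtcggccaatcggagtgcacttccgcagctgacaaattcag
Dusp1, chr17:26508473-26508722, minus strand: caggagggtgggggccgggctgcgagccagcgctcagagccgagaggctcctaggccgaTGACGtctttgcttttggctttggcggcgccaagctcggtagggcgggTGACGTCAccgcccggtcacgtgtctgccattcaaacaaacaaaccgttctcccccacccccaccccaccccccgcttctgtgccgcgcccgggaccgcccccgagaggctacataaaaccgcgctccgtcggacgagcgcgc
Fos held 2 half-sites, of which the nearer lay 66 to 62 bases before the start, Junb held 1, at 106 to 102 bases, and Dusp1 held 3. A pair of the Dusp1 half-sites overlap as the full element TGACGTCA, 143 to 136 bases before the start, and this full element was found in 1.55% of 32851 RefSeq windows of the same length.

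Windows were matched for 8 of the 10 members, all but Egr1 and Ier2. The half-site TGACG stood in 6 of the 8 (Fos, Fosb, Junb, Atf3, Nr4a1 and Dusp1) and in 17.8% of all windows. The GC box GGGCGG stood in 7 of the 8 and in 32.7% of all windows. The EGR element GCGNGGGCG stood in 3 of the 8 (Fosb, Nr4a1 and Zfp36) and in 4.70% of all, and it can share bases with a GC box. The CArG box, the element bound by SRF, was found in Zfp36 and in 1.47% of all windows. The TATA box TATAAA was found in Fos and in 12.4% of all. The AP-1 element TGANTCA (6.75% of all windows) and the core CTTTGA of TCF/LEF elements (13.8% of all windows) were found in 0 of the 8. Both strands were searched for every motif. These are matches of letters in this window and not binding sites shown by data.

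Total counts ran from 14032866 to 17782073 per library, so 3 counts correspond to 0.169 to 0.214 CPM, a floor that covers counting error only. The deleted gene followed every label: Tcf7l2 was 9.16 to 11.4 CPM in the controls and 5.57 to 6.20 CPM in the knockouts (log2 fold change -0.87). Of the adipocyte markers all 14 were detected in every library, with summed CPM of 39222 to 47233 in the controls and 40561 to 54360 in the knockouts. By edgeR 1 of them was higher (Lep, the leptin gene, 0.48 on the log2 scale) and 4 were lower. The lower ones included Cfd, the adipsin gene (-1.51), and Slc2a4, the insulin-responsive glucose transporter gene (-0.55). With 1 library left out, 0 to 2 adipocyte markers were higher and 2 to 4 lower. The count of higher ones was 0 without control 1, 2 or 4 or knockout 2 or 5. Knockout 1 stood apart in lymphocyte transcripts: its 12 T cell markers summed to 203 CPM against 45.1 to 49.6 in the controls and 46.8 to 77.1 in the other knockouts, and its 10 B cell markers to 1735 CPM against 686 to 993 and 869 to 1085. Its skeletal muscle markers summed to 943 CPM, above the 67.5 to 686 CPM of the controls and the 74.1 to 779 CPM of the other knockouts. The lymphocyte difference was not that library's alone: in the knockout group 7 of 12 T cell markers (median log2 fold change 1.77) and 5 of 10 B cell markers (2.72) were higher by edgeR, and 6 (0.88) and 3 (0.96) were without knockout 1. Without control 1, control 2 or control 4, 0 markers of either list passed, and without knockout 5, 4 T cell and 1 B cell markers did. Other cell types differed too. Of 12 endothelial markers 10 were lower (median -0.41, 4 to 12 with 1 library left out), and of 8 tested Schwann cell markers 4 were lower (median -0.57, 1 to 4 with 1 library left out). The part of these marker differences in the members' values was not tested beyond the fits given here. The Junb, Ier2, Dusp1, Atf3 and Fos fold changes are given with and without knockout 1. In these bulk libraries, fewer cells of a type and less RNA per cell cannot be told apart. The library numbers in the titles put all controls before all knockouts, so genotype cannot be told apart from any handling or preparation that followed this order.

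**Figure D1:**
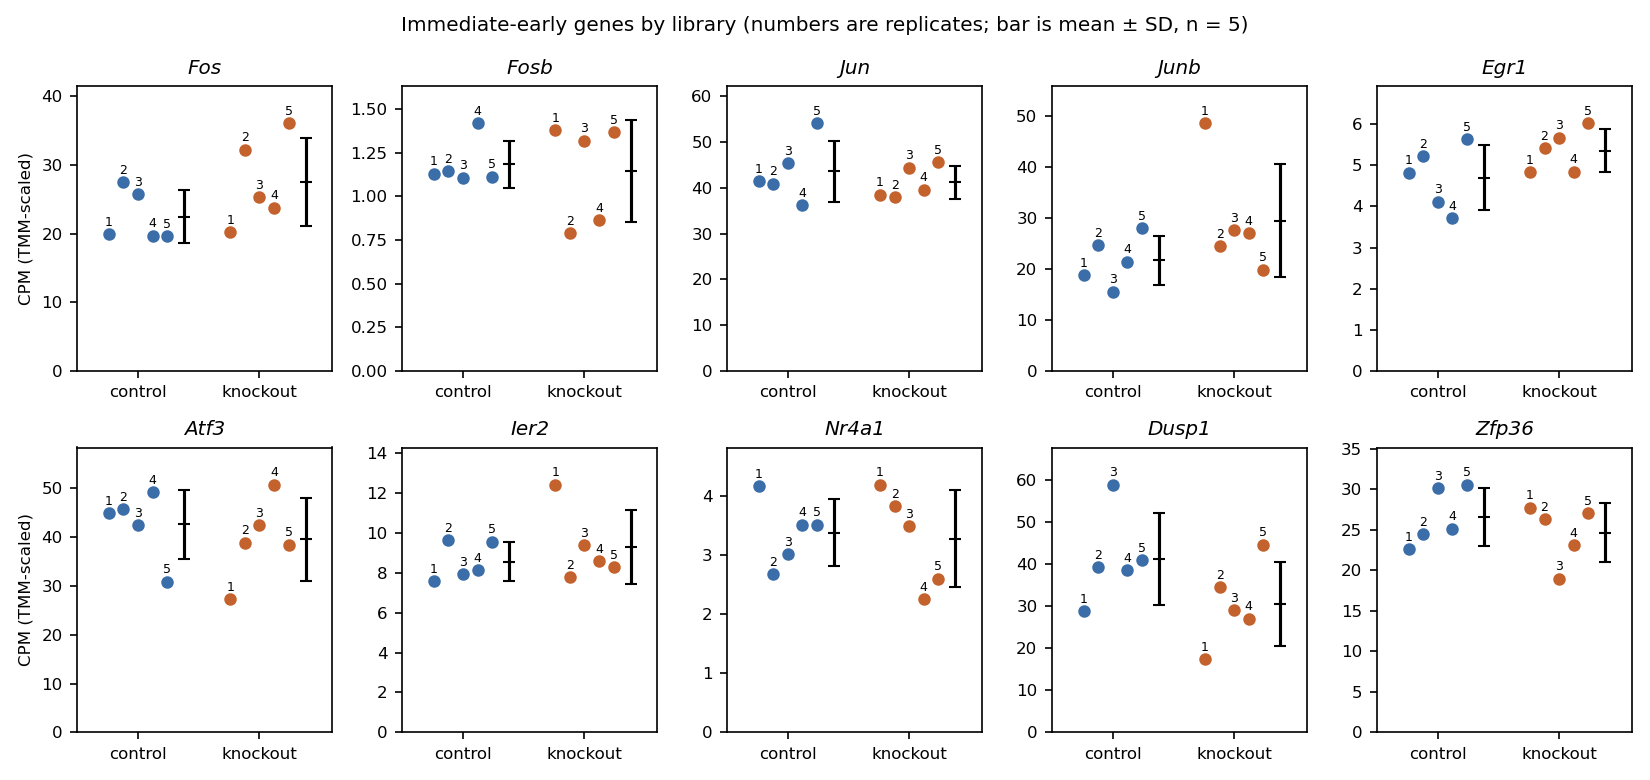
CPM of each of the 10 genes (vertical axis, from 0) in the 5 control and 5 knockout libraries (points numbered by replicate), with the mean and SD of each group as a bar beside them. The groups overlap in every panel, and knockout 1 is the highest library for Junb, at 48.5 CPM, and the lowest for Dusp1, at 17.4 CPM.

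Fos and Fosb encode partners of the JUN proteins in AP-1, a dimeric transcription factor. Fos (ENSMUSG00000021250, GRCm38 chr12:85473890-85477273, plus strand) stood at 19.9, 27.5, 25.7, 19.7 and 19.6 CPM in control 1 to 5. In knockout 1 to 5 it stood at 20.2, 32.2, 25.3, 23.8 and 36.1 CPM. Knockouts 5 and 2 were the highest of the 10 libraries, and the other knockouts lay within the range of the controls. Its log2 fold change was 0.29 (SE 0.16, 95% interval -0.05 to 0.63, edgeR adjusted p = 0.222). Without knockout 1 it was 0.39 (edgeR adjusted p = 0.0779), and without knockout 5 it was 0.18 (edgeR adjusted p = 0.463).

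Fosb (ENSMUSG00000003545, GRCm38 chr7:19302696-19310051, minus strand) was the least abundant member, with 13 to 24 counts per library. It lay between 1.11 and 1.42 CPM in the controls and between 0.790 and 1.38 CPM in the knockouts. At such counts, counting error alone gives a coefficient of variation (CV) of about 22.9% in the controls and 23.6% in the knockouts, beside observed CVs of 11.2% and 25.5%, so a spread beyond counting was not detectable at this depth. Knockout against control, Fosb had a log2 fold change of -0.05 (SE 0.22, 95% interval -0.52 to 0.43, edgeR adjusted p = 0.910).

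Jun and Junb encode the JUN side of AP-1. Jun (ENSMUSG00000052684, GRCm38 chr4:95049034-95052222, minus strand) stood at 38.5, 37.9, 44.4, 39.6 and 45.6 CPM in knockout 1 to 5. The controls held 41.4, 40.9, 45.3, 36.2 and 54.1 CPM, so that the highest value (control 5) and the lowest (control 4) were both controls. The log2 fold change of Jun was -0.08 (SE 0.10, 95% interval -0.30 to 0.13, edgeR adjusted p = 0.600).

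Junb (ENSMUSG00000052837, GRCm38 chr8:84974484-84978718, minus strand) had the smallest p of the set. In control 1 to 5 it stood at 18.7, 24.6, 15.6, 21.4 and 28.0 CPM, and in knockout 1 to 5 at 48.5, 24.4, 27.6, 27.0 and 19.9 CPM. A single library, knockout 1, lay above all controls, and the other knockouts lay inside the control range. The log2 fold change was 0.45 (SE 0.22, 95% interval -0.03 to 0.92, edgeR adjusted p = 0.184), and without knockout 1 it was 0.20 (edgeR adjusted p = 0.392). With the B cell marker score of each library as a covariate it was 0.07 (edgeR adjusted p = 0.878). The call of edgeR with no filter on low counts, which tested 40157 genes, was the exception: Junb passed there at 0.47 (adjusted p = 0.0393), and it was the only member that did.

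Of the exonic bases of Junb, 7.52% also belong to Prdx2 on the opposite strand, and no source used here gives the strand setting of the counting. Prdx2, a peroxiredoxin gene, stood at 133 CPM in knockout 1, inside the 119 to 164 CPM of all libraries, so it was not high where Junb was high. Of the exonic bases of Jun, 7.28% are shared with the antisense RNA gene Junos, which held 0.398 to 1.29 CPM. The shared part was 3.602% for Zfp36 and 0.332% for Dusp1, and 0 for the other members.

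**Figure D2:**
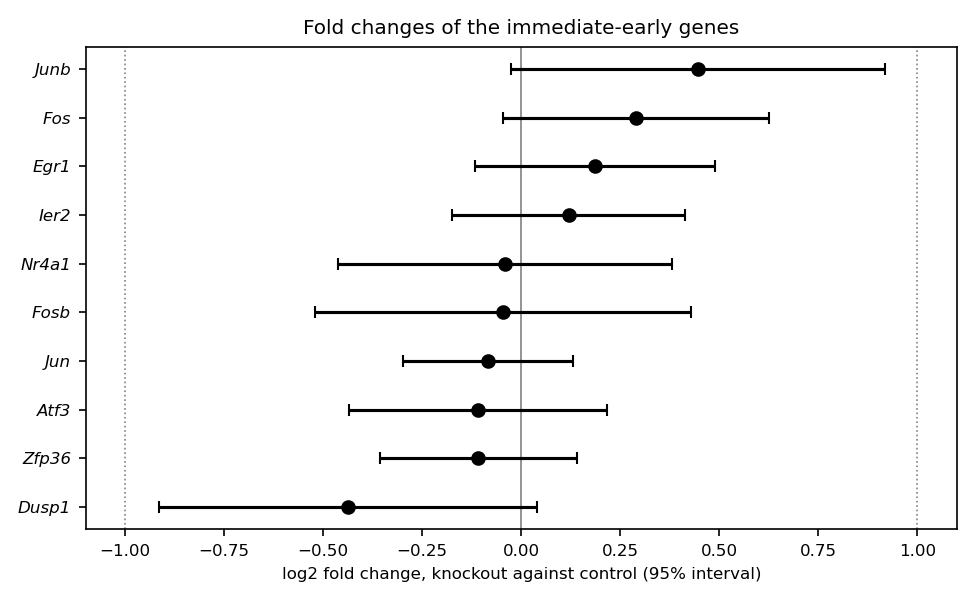
Log2 fold change of each gene, knockout against control (horizontal axis, points), with its 95% interval (bars) from edgeR's quasi-likelihood fit. All intervals cross 0 and lie between -0.92 and 0.92, inside the dotted lines that mark 2-fold either way.

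Egr1, a zinc finger factor that SRF and ELK switch on, and Nr4a1, an orphan nuclear receptor, were low in this tissue. Egr1 (ENSMUSG00000038418, GRCm38 chr18:34859823-34864984, plus strand) stood at 4.82, 5.22, 4.12, 3.72 and 5.63 CPM in the controls and 4.83, 5.41, 5.67, 4.85 and 6.02 CPM in the knockouts, from 55 to 96 counts per library. All knockouts lay above controls 1, 3 and 4, by little for control 1, and controls 2 and 5 lay among them. Its log2 fold change was 0.19 (SE 0.14, 95% interval -0.12 to 0.49, edgeR adjusted p = 0.391). Nr4a1 (ENSMUSG00000023034, GRCm38 chr15:101254269-101274795, plus strand) ranged from 2.67 to 4.17 CPM in the controls and from 2.26 to 4.19 CPM in the knockouts, and its log2 fold change was -0.04 (SE 0.19, 95% interval -0.46 to 0.38, edgeR adjusted p = 0.911).

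Atf3, a bZIP factor induced by many kinds of stress, was the most abundant member per kilobase. Atf3 (ENSMUSG00000026628, GRCm38 chr1:191170296-191218039, minus strand) stood at 44.8, 45.7, 42.5, 49.2 and 30.8 CPM in the controls and at 27.2, 38.8, 42.5, 50.7 and 38.4 CPM in the knockouts. The lowest library of each group was control 5 and knockout 1, and knockout 4 and control 4 were the highest. Atf3 had a log2 fold change of -0.11 (SE 0.15, 95% interval -0.43 to 0.22, edgeR adjusted p = 0.659), and it was 0.01 without knockout 1 (edgeR adjusted p = 0.977).

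Ier2, a small nuclear protein gene of the same early wave, (ENSMUSG00000053560, GRCm38 chr8:84661331-84662852, minus strand) held 7.56 to 9.61 CPM in the controls. Knockout 1 held 12.4 CPM and the other knockouts 7.78 to 9.37 CPM, within the control range. The log2 fold change of 0.12 (SE 0.14, 95% interval -0.17 to 0.41, edgeR adjusted p = 0.581) became -0.00415 without knockout 1 (edgeR adjusted p = 0.984).

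Dusp1 and Zfp36 act as brakes on the response. Dusp1 encodes a phosphatase that switches off p38, JNK and ERK, and glucocorticoids also induce it. Dusp1 (ENSMUSG00000024190, GRCm38 chr17:26505590-26562128, minus strand) stood at 28.9, 39.2, 58.9, 38.6 and 41.0 CPM in control 1 to 5 and at 17.4, 34.5, 29.1, 27.0 and 44.6 CPM in knockout 1 to 5. Control 3 was the highest library and knockout 1 the lowest, and knockouts 2, 3 and 4 lay below controls 2 to 5. The log2 fold change was -0.44 (SE 0.22, 95% interval -0.92 to 0.04, edgeR adjusted p = 0.197). It was -0.28 without knockout 1 (edgeR adjusted p = 0.305), -0.27 without control 3 (edgeR adjusted p = 0.415) and -0.61 without knockout 5 (edgeR adjusted p = 0.0911).

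Zfp36 encodes tristetraprolin, which binds AU-rich elements and hastens the decay of cytokine transcripts. Zfp36 (ENSMUSG00000044786, GRCm38 chr7:28376784-28380253, minus strand) ranged from 22.6 to 30.6 CPM in the controls and from 19.0 to 27.7 CPM in the knockouts. Its log2 fold change was -0.11 (SE 0.12, 95% interval -0.36 to 0.14, edgeR adjusted p = 0.549). Knockout 3 was the only library below the controls.

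Across the set, 4 log2 fold changes were positive and 6 negative, with a median of -0.04 beside 0.00018 for all tested genes. The median size without regard to sign was 0.11, beside 0.17 for all tested genes. All 10 intervals lay within 2-fold either way, and those of 7 members lay within 1.5-fold, the exceptions being Fos, Junb and Dusp1. A smaller shift than these bounds could not be shown or refused with 5 libraries a group. The CPM ranges of the groups overlapped for all 10 members, while 8.99% of all tested genes had ranges that did not. By DESeq2, limma-voom and limma-voom with quality weights, 0 members passed as well, and 1, 0 and 1 had an unadjusted p below 0.05.

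Per kilobase of exon, the order of the median levels over all 10 libraries was Atf3 (19.7 CPM per kilobase), Jun (12.9), Dusp1 (11.0), Junb (10.6), Fos (10.4), Zfp36 (7.42), Ier2 (5.53), Egr1 (1.12), Nr4a1 (0.999) and Fosb (0.182). The ranges over libraries overlapped between each neighbouring pair from Atf3 down to Ier2 and between Egr1 and Nr4a1. They did not overlap between Ier2 and Egr1, nor between Nr4a1 and Fosb. Exon length here is the union over all annotated transcripts, which lowers the value of a gene such as Fosb (6243 bases) whose transcripts differ.

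Read by library, the set gave no sign of a tissue sample in which all members were high beside the other samples. Levels were compared only among these 10 libraries, so an effect of handling shared by all of them could not be seen. Relative to the gene's median over 10 libraries, 1 member was more than 1.5-fold higher and 2 were more than 1.5-fold lower in knockout 1 (Junb against Dusp1 and Atf3). In control 3, 1 member was higher (Dusp1) and 1 lower (Junb) by that margin, and in knockout 4, 1 was lower (Nr4a1). No member passed 1.5-fold either way in the other libraries. The mean log2 CPM of the members was 3.65 to 3.81 in the controls and 3.63 to 3.83 in the knockouts, a span of 0.20 over all libraries.

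**Figure D3:**
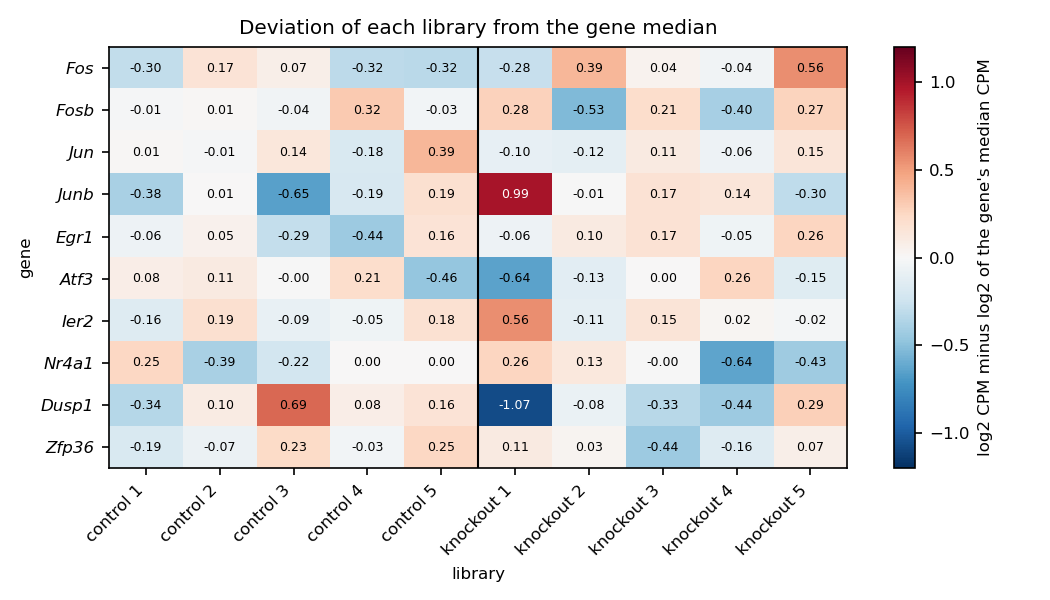
Each cell gives log2 CPM of a gene (rows) in a library (columns) minus the log2 of that gene's median over the 10 libraries, from blue (lower) to red (higher). The column of knockout 1 holds both the highest value, 0.99 for Junb, and the lowest, -1.07 for Dusp1, and no column is of a single colour.

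Most members varied between libraries more than the median tested gene, a comparison not matched for abundance. For the 13048 tested genes whose average log2 CPM reached 1, the median CV came to 9.58% (controls) and 10.6% (knockouts). All 9 members at that level exceeded this median in the controls and 7 did in the knockouts, where Jun (8.63%) and Egr1 (9.75%) were below it. With 1 library left out, 8 or 9 did in the controls and 6 to 8 in the knockouts. Dusp1 had a CV of 26.4% in the controls (percentile 93.1) and 32.8% in the knockouts (percentile 95.03). The control value was 14.8% (percentile 75.4) without control 3. Junb had 22.5% (percentile 89.8) and 37.6% (percentile 96.7), and its knockout value was 14.3% (percentile 76.9) without knockout 1. The CV of Dusp1 in the knockouts was 23.3% (percentile 92.6) without that library. Counting error alone would give a CV of 3.88% and 4.59% in Dusp1 and of 5.35% and 4.602% in Junb, so most of their spread lay beyond counting. For Egr1 and Nr4a1 the counting part was larger, at 11.5% and 13.5% in the controls. In the knockouts the counting part of Egr1 was 10.9%, above its observed CV of 9.75%.

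The members did not move as a block. Of 45 pairs of members, 22 had a positive and 23 a negative Pearson correlation of log2 CPM over the 10 libraries, with a median of -0.05, given as a description. The highest was that of Junb with Ier2 (r = 0.89, Spearman rho = 0.82), and it was 0.73 without knockout 1 and control 3, the 2 libraries farthest from the median of Junb. The lowest was that of Junb with Dusp1 (r = -0.82, rho = -0.49). Without the same 2 libraries it was -0.20, so it rested on them. The points share library depth and scaling.

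Ier2 and Junb were high together in knockout 1, the library with the most lymphocyte transcripts. That library also held the most skeletal muscle marker CPM, 943. Knockout 3 (779 CPM) and control 5 (686 CPM) came next, with Junb at 27.6 and 28.0 CPM. Knockout 4 held 74.1 CPM of these markers and 27.0 CPM of Junb. The part of muscle in these values was not tested. Socs3, a cytokine-induced inhibitor of JAK signalling, stood at 23.7 CPM in knockout 1 and at 5.89 to 13.5 CPM in the others. Camk4, a kinase gene expressed in T cells and neurons, stood at 7.12 CPM in knockout 1 and 1.05 to 3.56 CPM in the others. After subtraction of group means, Socs3 had r = 0.96 with Junb (0.90 without knockout 1) and Camk4 r = 0.95 with Ier2 (0.88 without it) over 10 libraries. These genes were taken from the 5 most similar to each member after their values were seen. Knockouts 3, 4 and 5 held 68.8 to 77.1 CPM of T cell markers, more than any control, while their Junb lay at 19.9 to 27.6 CPM, inside the control range. The part of lymphocytes in the Junb value was not tested beyond the fits without knockout 1 and with the B cell score.

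Tsc22d3, which encodes the glucocorticoid-induced leucine zipper protein, was among the 5 genes most similar to Dusp1 (r = 0.96, rho = 0.76 after subtraction of group means, 0.93 without knockout 1). Tsc22d3 was highest in control 3 (440 CPM) and lowest in knockout 1 (161 CPM), the same libraries as for Dusp1. Per1, a clock gene that glucocorticoids also induce, was highest in control 3 (42.6 CPM) and lowest in knockout 1 (11.3 CPM). Control 4 (42.3 CPM) lay close to control 3. Fkbp5, which encodes a co-chaperone of the glucocorticoid receptor, held 167 CPM in control 3 and 64.7 to 121 CPM elsewhere, but its lowest library was control 4, and knockout 1 held 73.7 CPM. None of these 3 genes passed between the groups (edgeR adjusted p = 0.899 for Tsc22d3, 0.290 for Per1 and 0.870 for Fkbp5). They were singled out after their values were seen. The part of glucocorticoids in these values was not tested.

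**Figure D4:**
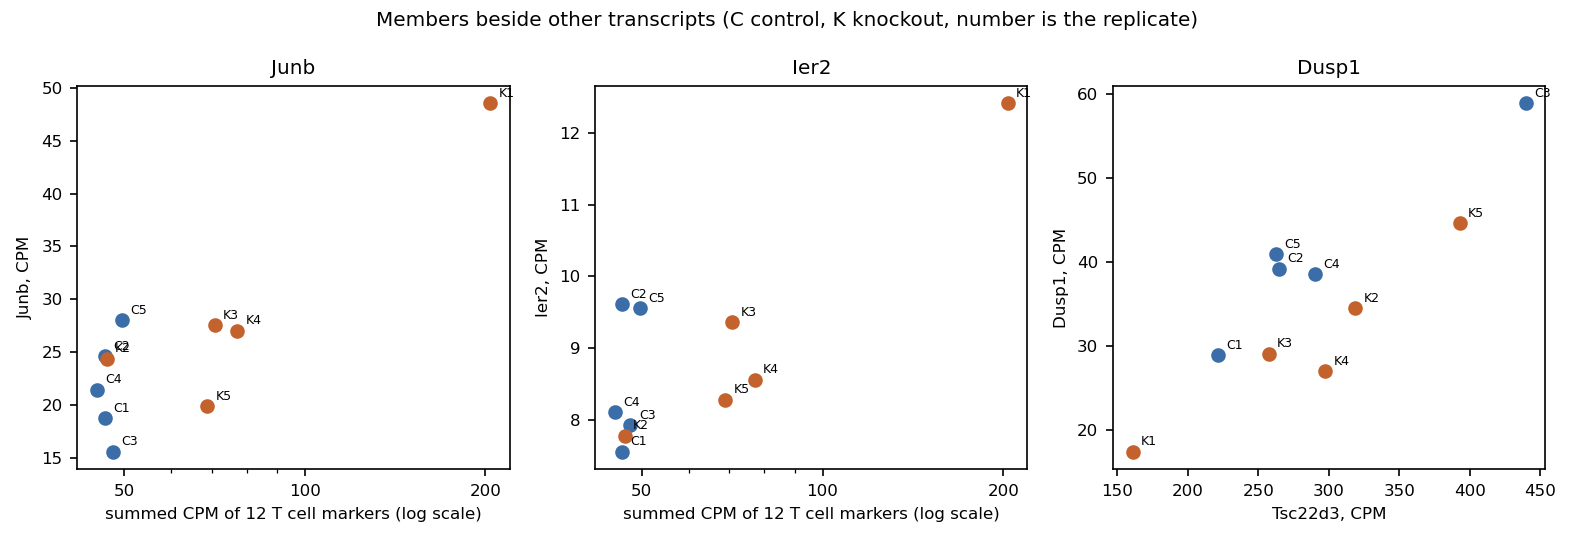
CPM of Junb and Ier2 against the summed CPM of 12 T cell markers (log axis), and CPM of Dusp1 against that of Tsc22d3, with 1 point per library. Knockout 1 (K1) lies alone at 203 CPM of T cell markers in the first panels, and Dusp1 runs from 17.4 CPM in K1 to 58.9 CPM in control 3 (C3) along with Tsc22d3.

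By the rule for likeness, the genes nearest to the mean of the members after subtraction of group means were Ftsj1, Prorsd1, Adh6b, Atp10a, Sez6l, Atpaf1, Rbm45 and Kcne1l, with r from 0.94 down to 0.87 over 10 libraries. They were the top of 12162 genes compared, and the mean they follow spans 0.20 on the log2 scale and joins members that do not vary together.

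Other genes of the early response were read from 9 lists of 156 genes, of which 152 were tested. In the knockout 3 rose and 3 fell, 3.95% of those tested beside 12.9% of all tested genes, and the median log2 fold change was 0.01. In 30 of the 152 the edgeR unadjusted p was below 0.05, beside 31% of all tested genes. The 3 that rose were Creb3, Id2 and Mapkapk2, and the 3 that fell were Mrtfb, Hsf2 and Csf1. In the fits that left out 1 library, the count of higher genes ran from 1 to 7 and that of lower genes from 0 to 5. Only 1 gene was higher when control 1, control 2, control 4 or knockout 2 was absent, and 7 were when control 5 was. The lower genes numbered 0 when control 2, control 4, knockout 2 or knockout 5 was absent, 1 in the absence of knockout 4 and 5 in that of control 5 or knockout 1. With the B cell score as a covariate, Mapkapk2 passed (edgeR adjusted p = 0.0417) and Creb3, Id2, Mrtfb, Hsf2 and Csf1 did not (0.0544, 0.0719, 0.147, 0.110 and 0.109).

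Among 21 relatives of AP-1 and the ATF factors, 1 rose, 0 fell and 20 did not pass (median 0.03). Creb3, a membrane-bound factor of the secretory pathway, rose from 57.2 ± 2.31 to 66.9 ± 3.29 CPM (mean ± SD, n = 5 each, log2 fold change 0.22, edgeR adjusted p = 0.0233). This call was lost without control 1, 2 or 4 or knockout 2 or 5 (adjusted p up to 0.0741). Fosl1, a FOS relative, stood at -0.47 (edgeR adjusted p = 0.0927) and Atf7 at -0.33 (edgeR adjusted p = 0.0648). Of 12 tested relatives in the EGR, NR4A and KLF families 0 passed in either direction by edgeR. An edgeR unadjusted p below 0.05 was reached by 31% of all tested genes and by 2 of these relatives. They were Nr4a2, a sister receptor of Nr4a1, at -0.48 (edgeR adjusted p = 0.110), and Klf15, a glucocorticoid-induced regulator of metabolism, at -0.61 (edgeR adjusted p = 0.157).

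Among 34 further immediate-early genes 1 rose, 0 fell and 33 did not pass (median 0.10). Id2, which encodes an inhibitor of basic helix-loop-helix factors, rose from 19.0 ± 2.36 to 25.2 ± 2.98 CPM (mean ± SD, n = 5 each, log2 fold change 0.40, edgeR adjusted p = 0.0261). It was lost without control 1, 2 or 4 or knockout 2 or 3 (adjusted p up to 0.0710). Sik1, a cAMP-induced kinase gene, stood at -0.57 (edgeR adjusted p = 0.0555). Of 12 tested DUSP phosphatases beside Dusp1, 0 passed by edgeR. An edgeR unadjusted p below 0.05 was found in 5 of them, beside 31% of all tested genes. Among the 5 were Dusp16 at -0.21 (edgeR adjusted p = 0.0941) and Dusp4 at 0.55 (edgeR adjusted p = 0.140). Of 11 genes of the ZFP36 family and of AU-rich decay, 0 passed by edgeR and 0 had an unadjusted p below 0.05 (median -0.01).

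Upstream of the members, 1 of 20 kinase pathway genes rose, 0 fell and 19 did not pass (median -0.00213). Mapkapk2, the p38 target kinase that phosphorylates tristetraprolin, rose from 119 ± 6.66 to 151 ± 8.88 CPM (mean ± SD, n = 5 each, log2 fold change 0.34, SE 0.060, edgeR adjusted p = 0.00757), and it passed whichever library was left out. When the fit included a covariate for the level of intronic-type loci (annotated as sense intronic or TEC, loci still to be tested for a transcript), its adjusted p was 0.338 (edgeR), and 0 genes of the 9 lists passed in either direction. Those loci took 0.158 to 0.306% of the counts in the controls and 0.125 to 0.179% in the knockouts, and their part in the result was not tested further. Of 16 regulators around SRF, ELK and CREB, 0 rose, 1 fell and 15 did not pass (median -0.11). Mrtfb, a coactivator of SRF, fell from 43.3 ± 4.11 to 34.7 ± 3.77 CPM (mean ± SD, n = 5 each, log2 fold change -0.32, edgeR adjusted p = 0.0359), a call kept in 2 of 10 fits that left out 1 library, those without control 5 and without knockout 3. Its relative Mrtfa stood at 0.33 (edgeR adjusted p = 0.0806).

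Heat shock genes are a second readout of stress at dissection. Of 17 tested, 0 rose, 1 fell and 16 did not pass (median 0.01). Hsf2, a heat shock factor gene, fell from 27.4 ± 1.78 to 22.7 ± 1.40 CPM (mean ± SD, n = 5 each, log2 fold change -0.27, edgeR adjusted p = 0.0254) and passed in 6 of 10 fits that left out 1 library, and its adjusted p reached 0.0779 in the rest, which lacked control 2, control 4, knockout 2 or knockout 5. With no filter on low counts its adjusted p was 0.0918. The constitutive chaperone gene Hspa8 stood at 0.27 (edgeR adjusted p = 0.0630). Named beyond the rule of smallest p, Hspa1a stood at -0.20 (edgeR adjusted p = 0.511) and Hspa1b at -0.16 (edgeR adjusted p = 0.663). Dnajb1, named in the same way, stood at 0.01 (edgeR adjusted p = 0.926).

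**Figure D5:**
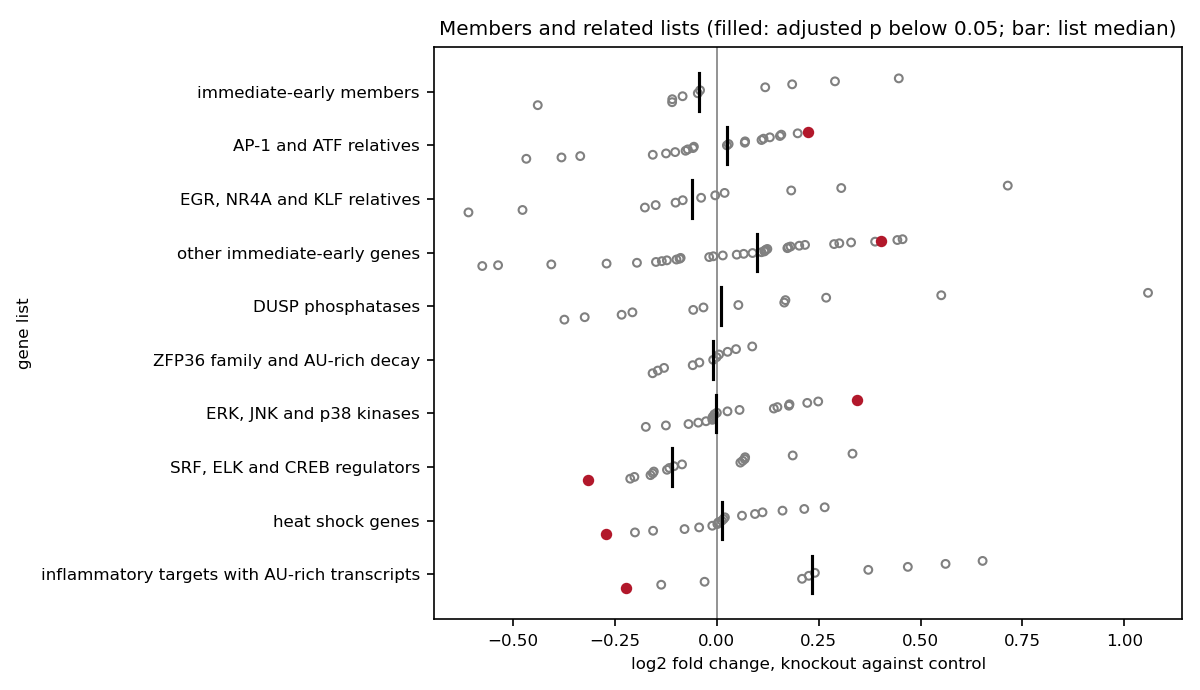
Log2 fold change, knockout against control, of every tested gene (points) of the members and of the 9 related lists (rows), with filled points for an edgeR adjusted p below 0.05 and a bar at each list's median. The members' row has no filled point, and the 6 filled points lie between -0.32 and 0.40.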

How the data were processed

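Total RNA of 10 inguinal fat samples was freed of ribosomal RNA and sequenced with a kit that marks strand, per the labels' protocols. The authors deposited raw read counts of every gene in 1 table. Per the submitters' processing notes, the tools included featureCounts 1.5.1, STAR 2.5.2b and DESeq2 1.16.0, with no role given. No source used here gives the annotation, the strand setting or how reads matching several places were counted. The titles give each library a further number of its own, with no word on what it counts, and the p-values measure the spread between these libraries. Gene symbols, positions and exon lengths are from GENCODE M21 on GRCm38, which gave a symbol to 52489 identifiers.

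Genes were filtered with filterByExpr by group, scaled with TMM and tested by the quasi-likelihood method (two-sided) in edgeR 4.0.16 and R 4.3.3, with Benjamini-Hochberg adjustment over all 15927 tested genes. Intervals are the log2 fold change ± the t quantile times its SE. Log2 CPM used a prior count of 2. The 20 pairs of libraries within a group differed by more than sampling noise (chi-square per degree of freedom 7.28 to 29.7). Alternatives were RLE and upper-quartile factors, no filter, DESeq2 1.42.0, limma-voom (limma 3.58.1) with and without quality weights, leaving out each library and, added after seeing the data, B cell and intronic-type scores as covariates (the latter the mean log2 CPM of 786 tested TEC and sense_intronic loci).

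The members and lists were chosen with earlier results of these data known. Named are the 10 members, up to 3 genes of smallest p from each list, 8 genes most like the members' mean, Tcf7l2, and others where the text says so.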

Additional observations from a re-analysis of the deposited data

Results flagged for a closer look

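A sample far from the rest of its group was looked for in 92 groups of 5 libraries, 20 of them of members, by the gap to the nearest library as a share of the group's range (above 0.71). About 1 in 20 such groups is marked by chance, and 6 were marked here. Among the members, Junb stood at 48.5 CPM in knockout 1, where the other knockouts held 19.9 to 27.6 CPM. Fosb stood at 1.42 CPM in control 4, where the other controls held 1.107 to 1.146 CPM, a difference of a few counts. Among relatives, Egr3, a factor of the EGR family, stood at 2.59 CPM in knockout 1 against 0.790 to 1.25 CPM in the other knockouts. Zfp36l1, a sister of Zfp36, stood at 20.7 CPM in knockout 1 against 13.5 to 15.5 CPM. Dusp16 stood at 25.2 CPM in knockout 3 against 20.97 to 21.97 CPM. Hnrnpd, whose protein binds AU-rich transcripts, stood at 19.0 CPM in knockout 2 against 24.9 to 26.4 CPM. Junb, Egr3 and Zfp36l1 thus share the library with the most T cell, B cell and skeletal muscle marker transcripts. That library also held the least red blood cell marker CPM (597). The part of any of those cells in these values was not tested.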

How the results depend on the processing

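Counts of members that passed stayed at 0 higher and 0 lower under every alternative but one: with no filter on low counts 1 was higher (Junb). In the fits that left out 1 library, the log2 fold changes of Fos (0.18 to 0.39), Junb (0.20 to 0.56), Egr1 (0.12 to 0.26), Dusp1 (-0.61 to -0.27) and Zfp36 (-0.16 to -0.03) kept their sign. Those of Fosb (-0.12 to 0.065), Jun (-0.14 to 0.0094), Atf3 (-0.21 to 0.0067), Ier2 (-0.0042 to 0.18) and Nr4a1 (-0.14 to 0.067) did not. Given the intronic-type covariate, Fosb (0.085), Atf3 (0.23) and Nr4a1 (0.0135) were positive, and Dusp1 (-0.94, unadjusted p = 0.0124), Jun (-0.37, unadjusted p = 0.00469) and Zfp36 (-0.40, unadjusted p = 0.017) lay outside the leave-out ranges, with edgeR adjusted p of 0.367, 0.269 and 0.379. With the B cell score Atf3 (0.078) was positive and Ier2 (-0.085) negative. Under that score Fos (0.47, edgeR unadjusted p = 0.0172, adjusted p = 0.117) and Egr1 (0.31) lay above their leave-out ranges. Junb (0.067), Fosb (-0.16) and Nr4a1 (-0.143) lay below theirs. Under the intronic-type score Fos (0.169) and Egr1 (0.011) lay below their leave-out ranges. Over all genes, the counts of higher and lower genes, 930 and 1123, became 1702 and 1903 by limma-voom with quality weights, 398 and 321 with the B cell score and 11 and 38 with the intronic-type score, and the higher count was 1409 by DESeq2. Leaving out 1 library gave 227 to 1386 higher and 310 to 1708 lower genes. In the related lists, 3 higher and 3 lower became 11 and 6 by limma-voom with quality weights, 1 and 1 with the B cell score and 0 and 0 with the intronic-type score, and the higher count was 8 by DESeq2 and with no filter. Leaving out 1 library gave 1 to 7 higher and 0 to 5 lower. The intronic-type score was itself 0.38 to 1.27 in the controls and 0.056 to 0.46 in the knockouts. A fit with that score therefore cannot cleanly separate it from genotype. The B cell score was 6.00 in knockout 1 and 1.33 to 3.24 in the other libraries, so that covariate rests largely on 1 library. The cause of these shifts was not tested. No paired analysis was possible because the labels give no replicate numbers. Fosb (13 to 24 counts) and Nr4a1 (34 to 73 counts) are limited by depth.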

Other observations

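Transcripts with AU-rich ends, which tristetraprolin is known to act on, were read as a further group. Of 10 tested inflammatory genes of this kind, 0 rose, 1 fell and 9 did not pass in the knockout. The share that passed was 10%, beside 12.9% of all tested genes. An edgeR unadjusted p below 0.05 was found in 3 of the 10, beside 31% of all tested genes. The median log2 fold change of the 10 was 0.23, beside 0.00018 for all tested genes. Csf1, the macrophage growth factor gene, fell from 54.3 ± 4.04 to 46.5 ± 1.98 CPM (mean ± SD, n = 5 each, log2 fold change -0.22, edgeR adjusted p = 0.0388), a call kept in 3 of 10 fits that left out 1 library, those without control 3, control 5 and knockout 1, and lost with no filter on low counts (adjusted p = 0.141). Tnf stood at 2.56 ± 0.438 CPM in the controls and 4.03 ± 1.157 CPM in the knockouts (mean ± SD, n = 5 each, log2 fold change 0.65, edgeR adjusted p = 0.0587), with its highest value, 5.63 CPM, in knockout 1 and its lowest, 1.97 CPM, in control 3. Those are the libraries with the lowest and the highest Dusp1, a match picked out after the values were seen. Knockout 1 also held the most T cell (203 CPM), B cell (1735 CPM) and skeletal muscle (943 CPM) marker transcripts. Tnf had 32 counts in control 3, beside 36 in control 2. The cause of its pattern was not tested. Ccl2, a chemokine gene, stood at 15.4 ± 6.05 and 22.7 ± 4.28 CPM (mean ± SD, n = 5 each, log2 fold change 0.56, edgeR adjusted p = 0.105). The transcripts of Il6 and Csf2 did not pass the filter on low counts.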
